A study of Mus musculus with 12 samples.

Results

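Gene expression was followed over time in the control arm of a knockdown study in J1, a mouse embryonic stem cell line. The cells carried a non-targeting short hairpin RNA (shNT), and their RNA at day 4 after lentiviral infection was compared with that at day 2. The comparison rests on 4 arrays of the 12 in the series, 2 for each day, chosen by their labels in the value table, and it was read across all genes. It asks how much the cells changed over 48 hours with no gene targeted.

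The groups had their cells, hairpin and media in common and differed in time and in slide. The cells were kept in ESGRO medium and moved to M15 medium for the infection. The series design calls the delivery an infection, and the samples' own descriptions call it a transfection. The design gives days 2 and 4 as 48 and 96 hours. The companion arm carried a hairpin against Ino80 (shIno80), the catalytic subunit of the INO80 chromatin remodelling complex, with 2 arrays for each day on the same slides. The 2 arrays of a group are biological replicates by the design, which does not describe the cultures, so their spread may be technical. The p-values measure only the spread within groups, taken for each gene from all 12 arrays, those of shIno80 included.

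Embryonic stem cells are taken from the inner cell mass and can be kept in an undifferentiated state by LIF and by BMP or serum. The transcription factors Oct4 (Pou5f1), Sox2 and Nanog hold that state, with Klf4, Klf5, Tbx3 and Esrrb among the factors that back it. Such cultures are mixed: some cells begin to express endoderm genes, and a few pass through a state that resembles the 2-cell embryo. Cells without a targeting hairpin can still change with the virus, the medium, the density of the culture and the time since plating.

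Levels are given as log2 of the processed intensity minus the array's 75th percentile, so 0 is the signal that 75 percent of probes fall below. A difference of 1 is 2-fold. Levels of 1 gene can be set side by side across arrays, and levels of different genes cannot. Genes were called at an adjusted p under 0.05 by limma with Benjamini-Hochberg adjustment over 19183 genes.

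The 12 arrays had 75th percentiles of 1162 to 1643 intensity units, and 62.3% to 69.7% of spots were well above background. Within a group the 2 arrays correlated at 0.991 to 0.994 across genes, and the day 2 with the day 4 shNT arrays at 0.977 to 0.986. The scanner files and the value table tie 6 of the 12 arrays to different samples, with shNT and shIno80 exchanged at positions 2 and 3 of each slide. Groups follow the value table here, a choice made with the Ino80 signal known. With that choice, Ino80 stood at 2.72 and 2.67 in shNT at day 2 and at 0.56 and 0.85 in shIno80. At day 4 it stood at 2.26 and 2.16 in shNT and at −0.29 and 0.12 in shIno80. Each day is 1 slide, so day and slide cannot be told apart in any value of the shNT change.

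Between day 2 and day 4, 2754 of 19183 genes were called in the shNT cells, which is 14.4% of those tested. Of these, 1464 rose (7.63% of genes tested) and 1290 fell (6.72%). Changes of 2-fold or more were called for 503 genes upward (2.62%) and 517 downward (2.7%), and changes of 4-fold or more for 92 upward and 85 downward. The median change of all genes was 0.09 on the log2 scale and lay between 0.02 and 0.10 under the scalings tried. The arrays of the 2 days did not overlap for 58% of all genes.

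The count of called genes moved with single arrays and with the array records. Without day 2 replicate 1 it was 1240, without day 2 replicate 2 it was 4356, without day 4 replicate 1 it was 1059 and without day 4 replicate 2 it was 1070. Whichever of the 4 arrays was left out, 751 genes were called, 308 of them higher at day 4 and 443 lower. With the groups set by the scanner file records, 113 genes were called, 53 higher and 60 lower, and 2619 had an unadjusted p under 0.05. A gene is described below as kept where its call held with each of the 4 arrays left out in turn.

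The largest rise among genes above background on all 4 arrays was that of Foxa2, a forkhead transcription factor of the endoderm and of the anterior primitive streak. Its levels were −5.28 and −4.18 at day 2 and −1.45 and −0.96 at day 4. Both day 4 arrays stood far above both day 2 arrays, a rise of 11.5-fold (log2 3.53, SE 0.37, adjusted p 0.00139, limma). Coch, which encodes the secreted protein cochlin, went from −3.13 and −2.91 to 0.24 and 0.48, a 10.4-fold rise (SE 0.16 on the log2 scale). Its arrays lay close together on each day, and its other probe gave a log2 rise of 3.25. Slc23a1, a vitamin C transporter, went from −3.71 and −3.65 to −0.42 and −0.35, a 9.82-fold rise with no overlap.

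The growth factor gene Fgf18 went from −1.37 and −0.45 to 1.88 and 2.38, an 8.21-fold rise. Fgfr2, which encodes a receptor for FGF ligands, went from −4.10 and −3.83 to −1.26 and −1.60, a rise of 5.80-fold. Sox18, a transcription factor known from blood and lymph vessels, went from −4.08 and −4.69 to −1.20 and −1.60, a rise of 7.93-fold. In each of these 3 genes both day 4 arrays were above both day 2 arrays. The other leading rises were those of Tmem54, Nat8l, Rassf9, Brsk2, Frem2, Bnipl, Pramel37, Enpp2 and Stmn4, between 5.80-fold and 6.79-fold. Enpp2 encodes autotaxin, which makes lysophosphatidic acid, and Frem2 encodes a basement membrane protein. In Tmem54, Rassf9, Brsk2, Bnipl, Pramel37 and Enpp2 the 2 day 2 arrays were themselves over 1 log2 unit apart. The other probe of Brsk2 gave 0.97 and was not called. Of these 15 rises, Rassf9 and Pramel37 were not kept and reached adjusted p values of 0.0620 and 0.0917 with an array left out.

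The largest fall among ranked genes above background on all 4 arrays was that of A2m, which encodes the protease inhibitor alpha-2-macroglobulin. Its levels were 1.09 and −0.78 at day 2 and −3.71 and −3.99 at day 4, a 16.0-fold fall (log2 −4.00, SE 0.61, adjusted p 0.00521). The day 2 arrays were far apart, against a median gap of 0.27 over all genes, and the second probe of A2m gave −1.15 and was not called. Ptgs1, which encodes the prostaglandin synthase COX-1, went from 0.24 and 0.32 to −2.99 and −2.39, a 7.85-fold fall. Duox2, an oxidase that makes hydrogen peroxide, went from −1.86 and −1.76 to −5.26 and −4.76, a 9.19-fold fall. The arrays of the 2 days were well apart in both genes.

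Kdr, which encodes the VEGF receptor of endothelial progenitors, went from −1.62 and −0.99 to −4.18 and −3.40, a fall of 5.60-fold. Aire, a transcription factor best known from the thymus, went from 2.43 and 2.34 to 0.23 and 0.12, a fall of 4.64-fold with close replicates. Hormad2 and Rec114, which act in meiotic recombination, fell by 6.50-fold and 5.14-fold. Trem2 and Rac2, genes best known from myeloid cells, fell by 6.92-fold and 5.06-fold, and Ly6a, the surface antigen Sca-1, by 6.36-fold. Crtac1 fell by 9.57-fold, Creb3l3 by 5.75-fold, Rhobtb1 by 5.33-fold, Gem by 4.94-fold and Prmt8 by 4.62-fold. The other probe of Trem2 gave −1.66 and was not called. Of these 15 falls, Rac2 was not kept and reached an adjusted p of 0.0839 with an array left out.

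**Figure D1:**
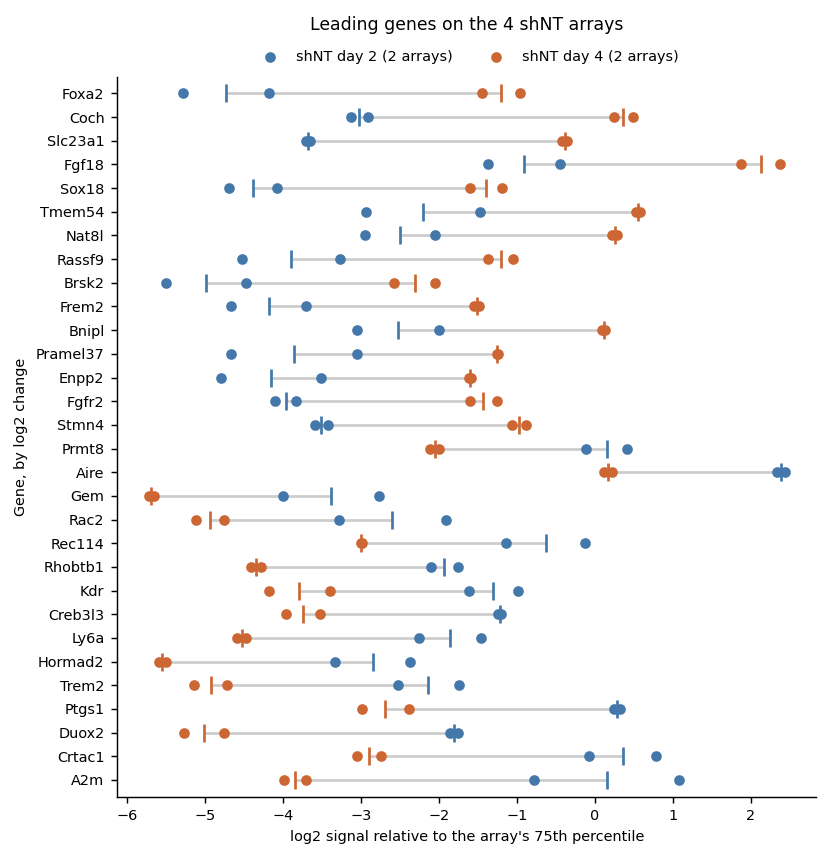
Levels of the 15 leading rises and 15 leading falls on the 4 shNT arrays, as log2 signal relative to each array's 75th percentile (horizontal axis). Each point is 1 array, vertical ticks are the means of 2 arrays and grey lines join the means. The day 2 and day 4 points do not overlap for any of the 30 genes, as is so for 58% of all genes. The 30 were picked by their change on these same arrays, which favours such separation. Foxa2 is at the top and A2m at the bottom. The 2 day 2 points lie farther apart than the 2 day 4 points for Tmem54, Pramel37 and A2m.

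Some genes were well above background on 1 of the 2 days only, where the fold is a lower bound. The bound sets the brighter day's mean against the dimmer day's detection floor. Among called genes, 81 were seen on both day 4 arrays and on no day 2 array, and 70 on both day 2 arrays and on no day 4 array. Prom2 rose by at least 6.63-fold (adjusted p 0.00518), though its other probe gave −0.25. Trim67 rose by at least 4.66-fold (other probe 0.98, not called), Hs3st2 by at least 4.22-fold and Gbp3 by at least 3.34-fold. Xist, the RNA that coats an inactive X chromosome, rose by at least 3.52-fold on the reported probe, while its other probe gave 0.71 and was not called. Xist was not kept, with an adjusted p of up to 0.168 when an array was left out.

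Downward, Kif12 fell by at least 7.89-fold, though its other probe gave 0.49 and its call was not kept (adjusted p up to 0.0545). Lrrtm1, a synaptic adhesion gene, fell by at least 5.35-fold, from −3.61 and −3.74 to −8.33 and −8.17. The other leading one-sided falls among ranked genes were those of Orly (at least 5.02-fold), Arl9 (at least 4.52-fold) and Erc2 (at least 4.25-fold). The other probe of Erc2 gave −0.68 and was not called.

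Gene lists are given below by their counts of calls, to be read beside the 7.63% of all genes that rose and the 6.72% that fell, and by their medians, to be read beside 0.09. Of 24 pluripotency genes tested, 3 fell (12.5%), none rose and 21 were not called, with a list median of −0.08 that reached −0.25 under quantile normalization. Pou5f1 stood at 5.20 and 4.99 at day 2 and at 5.31 and 4.95 at day 4, with overlapping arrays (log2 change 0.04, SE 0.17, adjusted p 0.902). Sox2 changed by −0.11 (SE 0.11, adjusted p 0.541), Zfp42 by −0.04 (SE 0.15, adjusted p 0.869), Nanog by −0.46 (SE 0.30, adjusted p 0.326) and Esrrb by −0.38 (SE 0.23, adjusted p 0.285), and none of these was called on its reported probe. The other probe of Esrrb gave −0.96 and was called lower. All 24 genes were well above background on all 4 arrays, which checks the label of the cells as stem cells.

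The 3 falls were in Tbx3, Klf4 and Klf5, which support self-renewal. Tbx3 went from 4.44 and 4.41 to 2.54 and 2.84, a 3.34-fold fall (adjusted p 0.000693). Its replicates lay close on both days, and its other probe fell by 3.51 on the log2 scale. Klf4 went from 6.10 and 6.15 to 5.16 and 5.53, a fall of 1.71-fold (adjusted p 0.0171), and Klf5 fell by 1.48-fold (adjusted p 0.0488). Tbx3 was kept, while Klf4 and Klf5 reached adjusted p values of up to 0.103 and 0.229 with an array left out.

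The LIF and FGF pathways act on that network from outside the cell. In the LIF-STAT3 list 2 of 11 genes fell: Lifr, the LIF receptor subunit, by 0.53 on the log2 scale, and Socs3, a feedback inhibitor induced by STAT3, by 0.40. The other 4 probes of Lifr gave −0.22 to 0.05. In the list of FGF-ERK targets and feedback genes 5 of 19 fell and none rose: Phlda1, Etv4, Egr1, Fos and Etv1. Phlda1 went from 2.11 and 2.24 to 1.06 and 1.37, a 1.95-fold fall, and Etv4 from 2.79 and 2.87 to 1.82 and 1.97, a 1.91-fold fall. Both were kept, and the arrays of the 2 days did not overlap in either. Without day 2 replicate 2 the LIF-STAT3 list had 1 rise and 1 fall and the FGF-ERK list 3 rises and 6 falls, and with the replicate number as a block the FGF-ERK list had 1 rise and 6 falls. The list medians were −0.12 and −0.06.

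Lineage genes moved in both directions. Of 18 endoderm genes tested, 6 rose and 1 fell, with a median of 0.14. With single arrays left out that median ran from −0.01 to 0.21. Gata6, a driver of primitive endoderm, went from −3.97 and −3.27 to −2.13 and −1.85, a rise of 1.63 on the log2 scale (SE 0.30, adjusted p 0.0111), and its other probe gave 0.67 and was not called. Dab2, an endocytic adaptor of that lineage, went from −4.14 and −3.88 to −2.54 and −2.49, a 2.81-fold rise (adjusted p 0.000426). The other probe of Dab2 gave 0.15 and was not called. Sox17 went from −4.17 and −4.67 to −3.23 and −3.10, with both day 4 arrays above day 2, and Pdgfra rose by 1.13 and Cubn by 1.54 on the log2 scale. Lamb1 rose by 0.44. Hnf4a, a factor of visceral endoderm and liver, went the other way and fell by 2.52-fold. Dab2, Sox17, Pdgfra and Hnf4a were kept, and Gata6, Cubn and Lamb1 were not.

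In the primitive streak list, 4 of 13 genes rose and 2 fell (median 0.28, and 0.10 under normexp). Besides Foxa2, the rises were those of the Wnt target Sp5 (4.46-fold), Wnt3 (log2 0.89) and Gsc (log2 0.86). Eomes, a T-box factor needed for endoderm and mesoderm, went from −2.07 and −2.30 to −3.51 and −3.47, a fall of 2.46-fold. Cdx1 fell by 2.45-fold. Foxa2, Eomes and Cdx1 were kept, so the kept calls of this list held 1 rise and 2 falls, and Sp5, Wnt3 and Gsc reached adjusted p values of 0.0963 to 0.183 with an array left out.

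Of 16 trophectoderm genes, 4 rose and none fell (median 0.38, and 0.16 under normexp): Cdx2 (3.79-fold), Tfap2c (2.46-fold), Krt7 (2.21-fold) and Gata2 (1.88-fold). Cdx2, which specifies trophectoderm, stood at −6.16 and −4.33 at day 2, where 1 of 2 arrays was above background, and at −3.43 and −3.21 at day 4. The other probe of Krt7 gave 0.49 and was not called. None of the 4 was kept, with adjusted p of 0.0983 to 0.170 when the array that mattered most was left out. In the neural ectoderm list, 4 of 11 rose and 1 fell. The list median was 0.72, but 0.10 under normexp and 0.24 on the deposited value table. Hes5 rose by 2.50-fold, Tubb3 by 1.74-fold, Map2 by 0.72 on the log2 scale and Dlx2 by at least 2.66-fold, while Ncam1 fell by 2.12-fold (7 other probes, −1.06 to 0.27, 1 called), and none of these 5 was kept.

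In the primed epiblast list, which holds genes of the stage after implantation, 3 of 12 rose and 2 fell (median 0.21), and none was kept. Dnmt3b rose by 1.78-fold, Cldn6 by 1.67-fold and Lin28b by 0.45 on the log2 scale. Otx2 went from 1.09 and 0.65 to −0.31 and −0.63, a fall of 2.53-fold with no overlap, and Foxd3 fell by 1.57-fold. Fgf5, the usual marker of that stage, was at −3.13 and −2.45 and then at −2.69 and −2.91, with overlapping arrays (log2 change −0.01, SE 0.28, adjusted p 0.990). Of 26 Hox genes, 1 rose (Hoxc5, 3.51-fold) and 2 fell (Hoxb6, 2.72-fold, and Hoxc4, 1.74-fold), with a median of −0.02. Hoxb6 was kept.

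Fibroblast markers were read because feeder cells can remain in stem cell cultures. Of 15 tested, 2 rose (Dcn by at least 1.74-fold and S100a4 by 2.75-fold), Fbln2 fell by 1.53-fold, and the median was 0.06. Lum and Col6a1 were not well above background on any of the 4 arrays, and Col1a1 changed by −0.02 (adjusted p 0.948). Of the 15 markers, 9 were well above background on both day 2 arrays and 11 on both day 4 arrays. The markers' log2 changes ran from −0.62 to 2.78, and the largest was not called. Their summed signal, in units of the array's 75th percentile, was 3.22 and 2.79 at day 2 and 2.46 and 2.84 at day 4, with overlapping arrays. The same sum was 51.5 and 49.3, then 42.5 and 48.8, for endoderm genes, and 8.91 and 10.8, then 14.5 and 15.6, for trophectoderm genes. Such sums weigh most on the brightest probes. They can be read across arrays within a list and cannot be set side by side between lists. The part of such cells in other changes was not tested. On whole-culture RNA, fewer cells of a type and less RNA per cell cannot be told apart in any list.

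**Figure D2:**
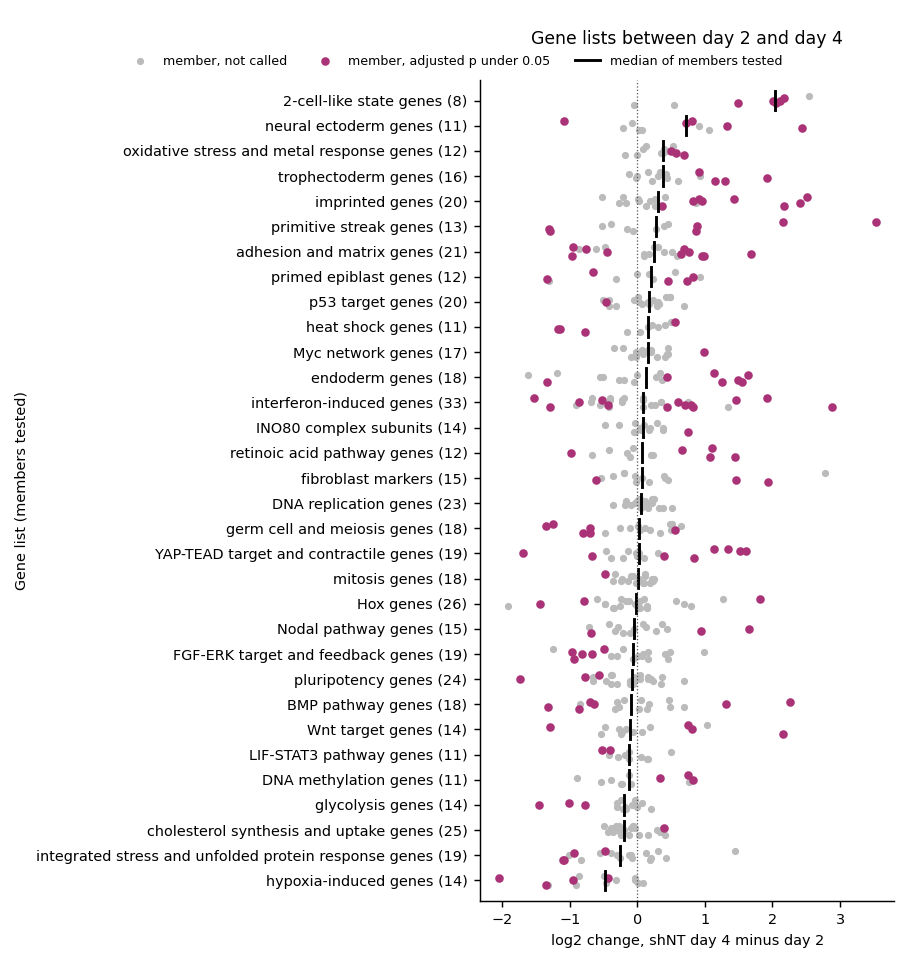
Log2 change from shNT day 2 to day 4 (horizontal axis) of every tested member of 32 gene lists, with the number tested after each name. Purple points passed the adjusted p threshold, grey points did not, and black bars are list medians, which run from −0.48 for hypoxia-induced genes to 2.03 for genes of the 2-cell-like state. Single members were called in both directions in many lists, while called imprinted genes lay to the right of 0 and called hypoxia-induced genes to the left.

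Imprinted genes, which are expressed from 1 parental allele and include several regulators of fetal growth, were called upward in 8 of 20 tested (40.0%, beside 7.63% of all genes), and none fell. The median was 0.31, and 0.19 under normexp. Igf2, a fetal growth factor, went from −3.59 and −2.61 to −0.80 and −0.37, a rise of 5.71-fold (adjusted p 0.0024). Dlk1, a non-canonical Notch ligand, went from −2.60 and −2.34 to −0.03 and −0.10, a rise of 5.30-fold (adjusted p 6.13e-05). Cdkn1c, an inhibitor of cyclin-dependent kinases, went from 1.63 and 2.40 to 4.08 and 4.27, a rise of 4.48-fold. In all 3 genes the arrays of the 2 days were well apart.

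Phlda2, which restrains placental growth, rose by 2.70-fold and Grb10, an adaptor that damps insulin signalling, by 0.96 on the log2 scale. Mest, Peg3 and Ndn rose by 0.91, 0.82 and 0.36. Igf2, Dlk1, Cdkn1c, Phlda2 and Grb10 were kept. The number of rises in the list was 5 to 7 with single arrays left out and 9 with the replicate number as a block.

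Genes of the 2-cell-like state had the highest list median, 2.03, with 5 of 8 tested genes higher and none lower. That median was 1.00 under normexp and 1.31 on the deposited value table. Zscan4c, the usual marker of that state, stood at 0.47 and −0.99 at day 2 and at 1.69 and 2.00 at day 4, a 4.31-fold rise (adjusted p 0.0459). Usp17la rose by 4.49-fold, Tcstv1 by 4.14-fold, Tcstv3 by 4.03-fold and Zfp352 by 1.49 on the log2 scale. In each of the 5 genes day 2 replicate 2 was over 1 log2 unit below day 2 replicate 1, and both day 4 arrays were above both. None of the calls was kept: without either day 4 array no gene of the list was called, without day 2 replicate 2 only 1 was, and the median then was 1.25. These genes belong to families of near-identical copies, so their probes may read more than 1 copy.

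Genes of signalling pathways that pattern the embryo were called in both directions. In the BMP list 2 of 18 rose and 4 fell (median −0.09). Id2, a target that blocks basic helix-loop-helix factors, went from 0.48 and 1.26 to 2.92 and 3.35, a rise of 4.81-fold, and Id1 rose by 2.48-fold. The ligands Bmp4 and Bmp7 fell by 0.64 and 0.71 on the log2 scale, the inhibitor Smad6 by 2.49-fold and Id4 by 1.81-fold. Id2, Id4 and Smad6 were kept.

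In the Nodal list 2 of 15 rose and 1 fell (median −0.04, above 0 on the deposited value table). Lefty1, a secreted inhibitor of Nodal, went from 2.85 and 3.46 to 5.03 and 4.58, a rise of 3.14-fold, Skil rose by 1.92-fold, and the receptor gene Acvr1b fell by 1.61-fold, while its other probe gave −0.02. None of these 3 was kept. Among 14 Wnt targets, Sp5, Nkd1 (1.75-fold) and Rnf43 (1.69-fold) rose, Cdx1 fell, and the median was −0.11. In the retinoic acid list 4 of 12 rose and 1 fell (median 0.07). Aldh1a2 and Rdh10, both enzymes that make retinoic acid, rose by 2.72-fold and 2.10-fold and were kept. Cyp26a1, which breaks it down, rose by 2.16-fold, Crabp2 by 0.66 on the log2 scale, and Crabp1 fell by 1.97-fold.

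Among YAP-TEAD targets and contractile genes, 6 of 19 rose and 2 fell, with a median of 0.02 that was below 0 under quantile and normexp normalization. Ccn2 went from 1.98 and 2.65 to 3.71 and 4.13, a rise of 3.04-fold, Tagln rose by 2.53-fold, Myl9 by 2.88-fold, and Cnn1, Thbs1 and Tpm1 also rose. Lats2, the kinase that inactivates YAP, went from −2.15 and −2.60 to −4.25 and −3.88, a fall of 3.23-fold, and Cald1 fell too. Of these 8 calls Lats2 was kept. In the adhesion and matrix list 6 of 21 rose and 4 fell (median 0.25). The epithelial genes Cldn7 (3.21-fold) and Cdh1 (log2 0.64) rose, Vim (log2 −0.76) and Zeb1 (1.94-fold) fell, and Snai1, a repressor of Cdh1, rose by 0.95. The other calls were rises of Itgb5, Lgals1 and Cd44 (other probe 0.41, not called) and falls of Itgav and Spp1, and Cldn7, Itgb5, Vim and Snai1 were kept.

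Interferon-induced genes were split. Of 33 tested, 8 rose and 5 fell, with a median of 0.09 that was below 0 under normexp. Rises were found in the guanylate-binding protein genes Gbp3 and Gbp2 (3.77-fold) and in the antigen presentation genes B2m, Psmb9, H2-K1 and Tap1, by 0.83, 0.71, 0.60 and 0.43 on the log2 scale. Bst2 also rose. Falls were found in Oas1a and Oas2, which make the activator of RNase L, and in Igtp, Ifi35 and Ifit2. Oas1a went from 0.71 and 0.34 to −1.08 and −0.93, a fall of 2.89-fold with close arrays on each day. Oasl2 was called upward but was not well above background on any of the 4 arrays. Oas1a, Oas2, Gbp2, Gbp3 and Psmb9 were kept.

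Bases upstream of the start site are shown for 2 of the genes that rose and 2 that fell in this list, to set their interferon-stimulated response elements side by side. Capitals mark GAAANNGAAA or its reverse complement TTTCNNTTTC, searched on both strands, and matches that overlap run together. Each line holds the 150 bases before the start, 5′ to 3′ in the direction of the gene, from RefSeq on GRCm38.p6. They lie at chr3:142559894-142560043, + strand (Gbp3), chr3:142620513-142620662, + strand (Gbp2), chr5:120907526-120907675, - strand (Oas1a) and chr11:58199406-58199555, + strand (Igtp).
Gbp3: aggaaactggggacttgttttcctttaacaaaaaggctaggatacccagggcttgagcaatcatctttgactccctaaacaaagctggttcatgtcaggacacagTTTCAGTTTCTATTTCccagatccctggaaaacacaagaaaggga
Gbp2: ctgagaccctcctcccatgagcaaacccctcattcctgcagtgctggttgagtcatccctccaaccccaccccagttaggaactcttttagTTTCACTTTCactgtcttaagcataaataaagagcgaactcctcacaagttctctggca
Oas1a: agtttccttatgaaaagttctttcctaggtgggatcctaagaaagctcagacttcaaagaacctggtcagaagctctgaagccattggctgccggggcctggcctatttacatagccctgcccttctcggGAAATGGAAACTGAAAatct
Igtp: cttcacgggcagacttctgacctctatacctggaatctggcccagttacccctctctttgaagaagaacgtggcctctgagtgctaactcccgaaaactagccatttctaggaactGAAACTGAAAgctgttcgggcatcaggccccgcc
The motif began at bases −45 and −39 in Gbp3, −59 in Gbp2, −20 and −14 in Oas1a and −34 in Igtp. A window of 300 bases around the start held it in 4 of the 8 genes called upward and in 2 of the 4 called downward that had a window, and in 9 of 14 that were not called. Over all 32851 windows it was found in 3.44%. A match is a description of these letters, and genes with one moved both ways.

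Of 14 hypoxia-induced genes, 4 fell (28.6%, beside 6.72% of all genes) and none rose, with the lowest list median, −0.48. Vegfa, the ligand of Kdr, went from 0.70 and −0.25 to −1.70 and −1.94, a fall of 4.13-fold (adjusted p 0.00388), and its other 2 probes gave −1.77 and −1.67. Egln3, an oxygen-sensing hydroxylase, fell by 2.56-fold, Bnip3, a mitophagy receptor, by 1.93-fold, and Car9, a carbonic anhydrase, by 1.36-fold. Without any 1 of day 2 replicate 1 and the day 4 arrays, 1 gene of the list was called, and without day 2 replicate 2, 7 were, all lower. Vegfa was kept, and the 3 others reached adjusted p values of 0.109 to 0.124 with an array left out. At day 6, on the third slide, Vegfa stood at −0.04 and −0.49 and Bnip3 at 3.82 and 3.22, near their day 2 levels, while Car9 stood at −2.86 and −2.98, below both earlier days. In the glycolysis list Pfkp (2.74-fold), Hk1 (2.02-fold) and Slc2a3 (1.71-fold) fell, of 14 tested, none rose, and the median was −0.19. Pfkp and Hk1 were kept.

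The core of the hypoxia response element, ACGTG or its reverse complement CACGT, was searched on both strands of the same windows. It was found in all 4 genes that fell and in 6 of 9 that were not called, against 19.6% of all windows and 21.8% of genes with any window. A gene counted where any of its windows held the core, and a window of Vegfa lies at an alternative start inside the gene. The 250 bases before the start are shown for 3 of the falling genes, with the core in capitals (in Bnip3 both strands match and overlap), from RefSeq on GRCm38.p6. They lie at chr12:54203875-54204124, - strand (Egln3), chr7:138909507-138909756, - strand (Bnip3) and chr4:43506776-43507025, + strand (Car9).
Egln3: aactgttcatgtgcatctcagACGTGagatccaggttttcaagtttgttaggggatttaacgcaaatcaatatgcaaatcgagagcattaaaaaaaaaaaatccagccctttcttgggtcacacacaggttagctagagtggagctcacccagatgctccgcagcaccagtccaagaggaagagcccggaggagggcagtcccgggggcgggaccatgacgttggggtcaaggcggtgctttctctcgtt
Bnip3: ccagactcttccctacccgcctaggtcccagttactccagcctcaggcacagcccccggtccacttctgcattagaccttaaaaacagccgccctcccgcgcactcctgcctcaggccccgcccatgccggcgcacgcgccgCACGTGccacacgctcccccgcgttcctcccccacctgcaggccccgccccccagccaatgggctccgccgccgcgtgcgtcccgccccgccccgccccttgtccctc
Car9: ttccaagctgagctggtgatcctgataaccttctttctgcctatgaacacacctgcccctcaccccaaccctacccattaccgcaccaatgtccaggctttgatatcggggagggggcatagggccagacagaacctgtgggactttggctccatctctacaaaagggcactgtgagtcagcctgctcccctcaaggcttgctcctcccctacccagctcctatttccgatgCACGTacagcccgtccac
The core began at base −229 in Egln3, at −108 and −107 in Bnip3 and at −18 in Car9. So short a core is common in promoters, and binding at it was not measured here.

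In the list of the integrated stress and unfolded protein responses, 4 of 19 fell and none rose (median −0.26), while without day 2 replicate 2 there were 6 falls and 1 rise. Asns, asparagine synthetase, went from 6.55 and 6.66 to 5.40 and 5.65, a fall of 2.11-fold that was kept, and Stc2, Chac1 and Cth fell by 2.14-fold, 1.92-fold and 1.39-fold. Oxidative stress and metal response genes had 3 rises in 12 (Hmox1, 1.62-fold; G6pdx, 1.49-fold; Gclc, 1.41-fold) and a median of 0.38. Heat shock genes had 1 rise (Hsph1, 1.47-fold) and 3 falls (Hspb8, 2.25-fold; Cryab, 2.22-fold; Serpinh1, 1.71-fold) in 11, with a median of 0.16 that was below 0 under quantile and normexp normalization. Of 20 p53 targets, Fas fell by 1.38-fold, none rose, and Cdkn1a changed by −0.42 (SE 0.17, adjusted p 0.130). The p53 median, 0.17, was also below 0 under those 2 normalizations, and it ran from 0.04 to 0.34 with single arrays left out.

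Of 23 DNA replication genes limma called 0, with 3 at an unadjusted p under 0.05 (log2 changes −0.36 to 0.51, median 0.06), and of 18 mitosis genes Nusap1 fell by 1.39-fold (median 0.01). Both medians were below 0 under quantile and normexp normalization. Among 17 Myc network genes, Mycn went from 3.91 and 4.09 to 5.03 and 4.93, a 1.98-fold rise that was kept (median 0.15). Of 25 genes of cholesterol synthesis and uptake, Dhcr7 rose by 1.31-fold (median −0.19), while its other probe gave 0.00.

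Of 14 INO80 complex subunits, Ino80c rose by 1.69-fold and was not kept, and its other probe gave 0.12. Ino80 itself went from 2.72 and 2.67 to 2.26 and 2.16, lower on both day 4 arrays but not called on the reported probe (log2 −0.49, SE 0.17, adjusted p 0.0876). Its other 2 probes gave −0.71 and −0.56, and 1 of them was called lower. The list median was 0.08 and fell below 0 under quantile normalization. In the DNA methylation list Dnmt3b, Tet3 (1.69-fold) and Dnmt3l (1.26-fold) rose among 11 (median −0.13), and the other probe of Tet3 gave 0.31 and was not called. In the germ cell and meiosis list 5 of 18 fell and 1 rose, with a median of 0.02 that was below 0 under quantile and normexp normalization. Kit fell by 2.55-fold, Sohlh2 by 2.39-fold, Piwil2 by 1.74-fold, Hormad1 by 1.63-fold and Dazl by 0.70 on the log2 scale, while Prdm1 rose by 0.56. Piwil2 was kept.

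Over the 32 lists together, 535 of 582 distinct members were tested, 77 rose and 57 fell. Of these 134 calls, 39 were kept. No call was kept in the lists of DNA methylation, primed epiblast, oxidative stress, 2-cell-like, trophectoderm, neural, Nodal, LIF-STAT3, fibroblast, p53, cholesterol, mitosis and INO80 genes. These lists held 1 to 5 calls each and were not compared with the share kept over all called genes.

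**Figure D3:**
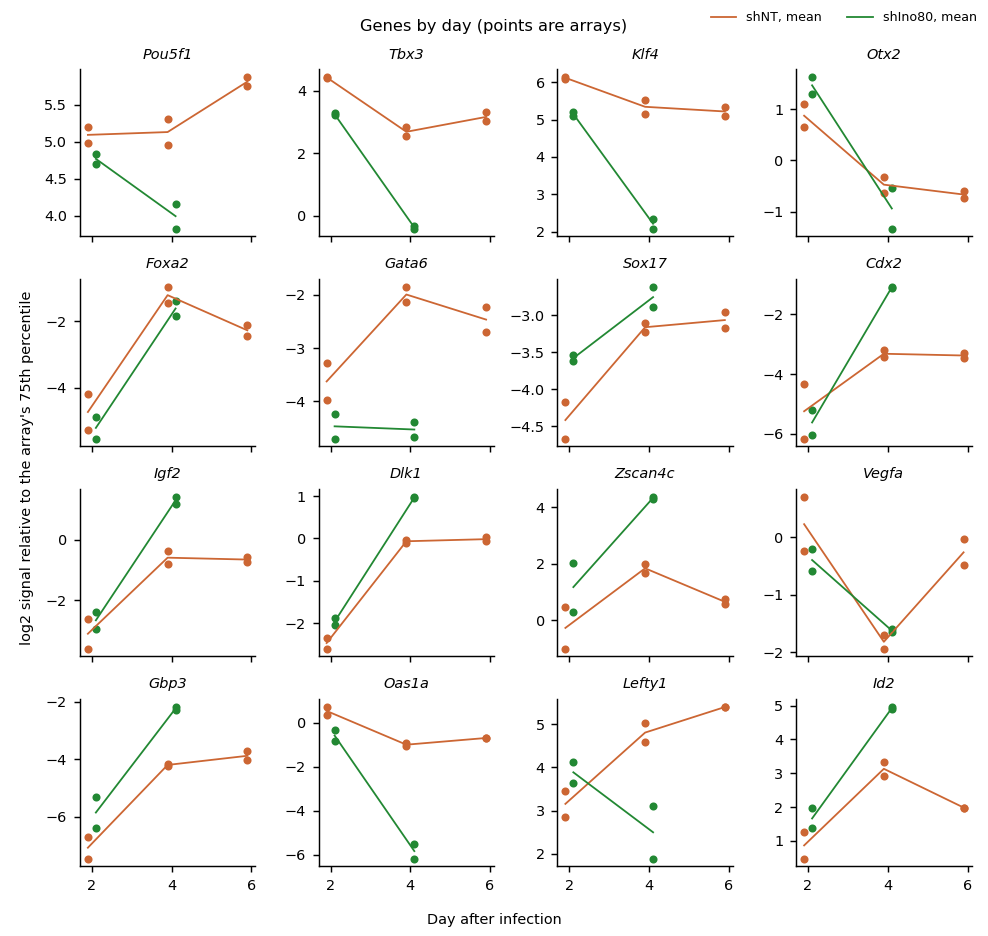
Levels of 16 genes by day (horizontal axis) in shNT (orange, days 2, 4 and 6) and shIno80 (green, days 2 and 4), as log2 signal relative to each array's 75th percentile; points are arrays, lines join means, and vertical scales differ. In shNT, Igf2 and Dlk1 were nearly level from day 4 to day 6, Foxa2, Zscan4c and Id2 were lower at day 6 than at day 4, and Vegfa was higher. Lefty1 rose in shNT and fell in shIno80, and Gata6 rose in shNT and was level in shIno80.

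The shIno80 arrays of days 2 and 4, from the same slides, show which of these changes came with the knockdown arm as well. There 7428 genes were called, 38.7% of those tested, with 3965 higher (20.7%) and 3463 lower (18.1%). Of the 2754 shNT calls, 1790 were called in the same direction in shIno80, which is 65.0% of the shNT calls and 24.1% of the shIno80 calls. Another 180 were called in the opposite direction and 784 were not called. Because the 2 arms shared slides, a difference between slides would move both alike, and its part in the shared calls was not tested.

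Foxa2 rose by 3.60 on the log2 scale in shIno80, Coch by 3.24, Slc23a1 by 3.73 and Sox18 by 2.88, close to the shNT values of 3.53, 3.38, 3.30 and 2.99. Kdr fell by 2.77 and Hoxb6 by 1.46, beside 2.49 and 1.44 in shNT. In some lists the shIno80 median was nearer to 0 than that of shNT, as in the neural ectoderm list (0.06, beside 0.72 in shNT). The list medians of shIno80 were farther from 0 in several lists. They were −0.94 for pluripotency genes (16 of 24 lower, 1 higher), 2.67 for trophectoderm genes (14 of 16 higher), 0.74 for endoderm genes (11 higher, 3 lower), 1.35 for fibroblast markers (11 higher, 1 lower), 0.80 for imprinted genes (12 higher), 3.31 for 2-cell-like genes (7 of 8 higher) and −1.06 for hypoxia-induced genes (8 lower, 1 higher).

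The difference between the 2 arms in the day 4 minus day 2 change was tested directly, and 2940 genes passed (15.3% of genes tested, 1568 above 0 or 8.17%, and 1372 below 0 or 7.15%). An effect that is added to all arrays of a slide cancels in this difference. Among shNT calls, 839 also passed it. Of these, 352 had the larger change in shNT and 359 had changes of opposite sign in the 2 arms. In the lists named above, 13 of 24 pluripotency, 11 of 16 trophectoderm, 8 of 18 endoderm and 7 of 15 fibroblast genes passed the test. Among 2-cell-like, hypoxia-induced and imprinted genes, 2 of 8, 4 of 14 and 4 of 20 did. The difference uses the 4 shNT arrays too, so these counts are a description.

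Lefty1 rose by 1.65 in shNT and fell by 1.39 in shIno80, where it went from 3.65 and 4.12 to 3.11 and 1.89 (difference −3.04, adjusted p 0.00871). Gata6 stayed between −4.70 and −4.24 on the 4 shIno80 arrays (difference −1.69, adjusted p 0.0341). Pdgfra rose by 1.13 in shNT and fell by 0.64 in shIno80. Mycn changed by −0.16 in shIno80 (difference −1.14, adjusted p 0.0099). Trim67, Hs3st2 and Lyrm7, seen at day 4 and not at day 2 in shNT, also had the larger rises there, with differences of −2.87, −3.15 and −3.33. Lyrm7 was well above background on none of the 4 shIno80 arrays and Hs3st2 on 1, so these differences rest in part on levels near background. Without the filter on dim probes, which lets in another probe, the change of Lyrm7 was −0.084.

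Phlda1, Cryab, Lats2 and Serpinh1 fell in shNT and rose in shIno80. Cryab went from −0.87 and −1.19 to −2.37 and −1.99 in shNT and from −0.98 and −1.25 to 1.51 and 1.42 in shIno80 (difference 3.73, adjusted p 0.00029). Its day 2 levels overlapped between the arms, and its day 4 levels were far apart. Tgfbr2, Slco2a1 and Adgrg2 likewise fell in shNT and rose by over 3 log2 units in shIno80. In shNT the other probe of Tgfbr2 gave 0.36 and that of Slco2a1 −0.06, and neither was called. With the groups set by the scanner file records, the shNT changes of Phlda1, Cryab, Adgrg2, Slco2a1 and Tgfbr2 were 0.35, 0.50, 0.91, 0.93 and 1.39, above 0. Asns fell by 1.08 in shNT and changed by 0.00 in shIno80, where its 4 arrays read 6.16 to 6.23. Eomes fell by 1.30 in shNT and changed by 0.36 in shIno80 (difference 1.66, adjusted p 0.00173).

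**Figure D4:**
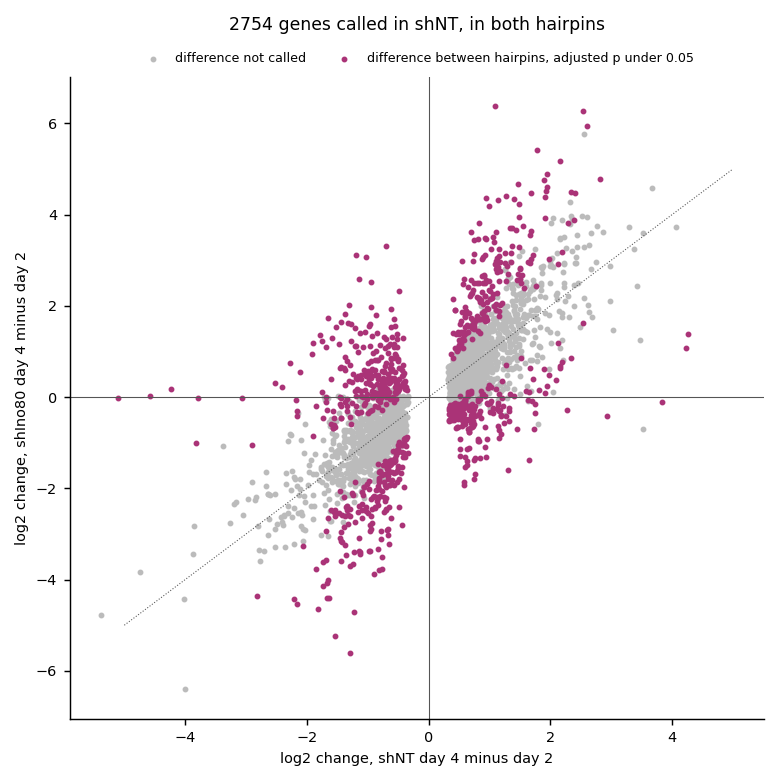
Log2 change from day 2 to day 4 in shNT (horizontal axis) and in shIno80 (vertical axis) for the 2754 genes called in shNT, 1 point per gene; purple marks the 839 that passed the test of the difference, and the dotted line is equal change. Grey points lie around the dotted line, and purple points fill the upper left and lower right corners and the steep part above and below it; the gap around 0 on the horizontal axis is made by the call itself.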

How the data were processed

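Spot intensities came from 1-channel scans read by Feature Extraction 9.5.3.1 (Agilent), per the file headers. The deposited processed intensity is background-subtracted, with no scaling between arrays. The labels name Cy5, while the files hold green columns. The deposited value table holds log2 values, whose columns matched scanner files within a relative 1e-06 and gave the groups. Column medians were 7.30 and 7.22 (shNT day 2) and 7.26 and 7.24 (day 4). How its scale was set was not stated.

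Outlier spots were left out (125 of 41174 probes dropped), log2 processed intensity was centred on each array's 75th percentile, and probes well above background on both arrays of a group were kept (28654). A gene was its brightest probe. Names came from the files or, by accession (22951 probes) or symbol, from RefSeq on GRCm38.p6. limma 3.58.1 in R 4.3.3 fitted 6 group means to 12 arrays, and was tested on simulated data. A lower bound is the brighter group's mean over the floor of the dimmer arrays. The precision is limited by the number of arrays.

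Named genes were the 15 largest called changes each way, the 5 largest bounds, up to 4 called members of each of 32 lists, 10 preset genes and the 5 largest differences between hairpins each way. Further called list members are named to complete their lists. Members and lists were chosen with earlier results of these data known. Of the named genes, 1 is not reported here.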

Additional observations from a re-analysis of the deposited data

Results flagged for a closer look

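For 57 of the 149 named genes the day 4 minus day 2 change differed between the arms by the limma test of the difference itself (shIno80 change minus shNT change, log2 scale, adjusted p under 0.05). Of all 19183 genes 15.3% passed that test, and of the 2754 shNT calls 839 did. Several of the 57 were named for that difference, so their share is no result about the named genes. The values below, of those reported here, are that difference and share the 4 shNT arrays with the shNT changes.

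Pluripotency and LIF pathway genes had values below 0, with lower changes in shIno80: Nanog (−2.74), Esrrb (−2.57), Klf4 (−2.16), Tbx3 (−1.88), Zfp42 (−1.48), Sox2 (−0.87), Lifr (−0.75) and Socs3 (−0.60). Foxd3, of the epiblast list, was at −1.28. Trophectoderm genes had values above 0: Krt7 (3.18), Cdx2 (2.60) and Gata2 (1.74). So had the fibroblast markers S100a4 (3.22), Dcn (2.66) and Fbln2 (1.19), and Fgf5 (2.70). Other lineage genes went both ways, with Eomes (1.66), Cyp26a1 (2.52) and Stmn4 (3.73) above 0 and Gata6 (−1.69), Hnf4a (−1.14), Hes5 (−1.56) and Lefty1 (−3.04) below it.

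Among signalling genes the values were Phlda1 (2.56), Lats2 (2.80), Tagln (2.37), Tgfbr2 (4.01) and Id4 (0.91) above 0 and Egr1 (−1.01), Mycn (−1.14) and Fgfr2 (−0.92) below. Adhesion genes read Itgav (1.25), Cldn7 (1.34), Cd44 (1.55) and Zeb1 (−1.97). Stress and metabolic genes read Cryab (3.73), Serpinh1 (1.67), Asns (1.07), Cdkn1a (1.23), Pfkp (−1.62) and Bnip3 (−1.28). Interferon-induced and immune genes read Oas1a (−3.71), Gbp2 (2.00) and Csf1 (5.29), where Csf1 was not well above background on any shNT array of days 2 and 4. Germ cell and methylation genes read Kit (−2.11), Piwil2 (0.99) and Tet3 (0.87). The rest were Slco2a1 (4.10), Adgrg2 (4.30), Lrrtm1 (4.60), Arl9 (2.83) and Rhobtb1 (2.64) above 0 and Lyrm7 (−3.33), Hs3st2 (−3.15), Trim67 (−2.87) and Prmt8 (−2.21) below. Lrrtm1 and Lyrm7 were well above background on none of the shIno80 arrays of days 2 and 4. In shNT, Lrrtm1 was seen on both day 2 arrays and on no day 4 array, and Lyrm7 the other way round. Their values rest in part on dim levels and do not measure how far the arms differed.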

How the results depend on the processing

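The count of 2754 genes called in shNT was within 1.5 times of itself under the 4 scalings (2277 by the median to 3592 by normexp; 3142 on the value table, 60.4% of them higher), the mean of probes (2821) and the stricter filter (3042). It was 1809 without a filter, 859 with the 4 shNT arrays alone and 1196 with the 6 shNT arrays. The scanner attachments gave 113. Single arrays left out gave 1059 to 4356. The count for the difference, 2940, was 1855 without a filter, 1 with the scanner attachments (199 at an unadjusted p under 0.05) and 1616 to 2795 with an array left out. With the replicate number as a block the counts were 2830 and 2897. Over 15 pairs of groups, the deviations of same-numbered arrays from their group means correlated at −0.17 to 0.30, over 0.1 in 5. For shNT day 2 with shNT day 4 the value was 0.20. The numbers were not taken to pair the samples.

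Of 141 named called genes, 120 stayed called under the 4 scalings, and 57 under all alternatives but the scanner attachments, which kept 15. With those attachments Phlda1 (0.35), Cryab (0.50), Adgrg2 (0.91), Slco2a1 (0.93) and Tgfbr2 (1.39) changed sign, as did Lyrm7 (−0.084) without a filter. Those attachments put arrays that the value table gives to shIno80 into the shNT groups, and which record is right was not tested. Without the filter Lyrm7 was read from another probe. A cause beyond that was not tested. Of 32 list medians, 9 changed sign with a scaling. Genes under background have bounds only.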

Other observations

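Detection was uneven between the days. Of all genes tested, 337 were well above background on both shNT day 4 arrays and on no day 2 array, and 136 on both day 2 arrays and on no day 4 array. The genes with a change above 0 were 59.7% of all genes tested, while 53.2% of the called genes were higher.

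How alike the 2 arrays of a group were depended on the measure. The median absolute log2 difference of the shNT day 2 arrays was 0.27, against 0.16 at day 4 and 0.13 at day 6 in shNT, and 0.22, 0.13 and 0.15 at days 2, 4 and 6 in shIno80. By genes over 1 log2 unit apart they were not the farthest, with 641, against 431 at day 4 and 1127 at day 6 in shNT, and 706, 439 and 487 at days 2, 4 and 6 in shIno80. Day 2 replicate 2 lay nearer to the day 4 mean than replicate 1 in 1996 of the shNT calls (72.5%, against 66.8% of all genes). In shIno80, the second day 2 array lay nearer in 5069 calls (68.2%, against 62.2% of all genes). For genes of the 2-cell-like state the order was the other way round, with replicate 2 farther from day 4 in all 5 called genes. What sets the arrays apart was not tested.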
